A study of Mus musculus with 26 samples.

Results

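The mRNAs described here are those of the mitochondrial genome in stressed mouse fibroblasts. They were taken by symbol, as the rows COX1, COX2, COX3, CYTB, ATP6, ND1, ND2, ND4 and ND5 that the deposited gene tables write in capitals. They make up 9 of the 20430 gene rows of the RNA table and 9 of the 19941 rows of the footprint table, and all 9 passed the filter on low counts in every fit. The mouse mitochondrial genome has 13 protein-coding genes in the RefSeq table used, and the rows of the other 4, ATP8, ND3, ND4L and ND6, were present too and are given for comparison.

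Mitochondria keep a small circular genome that is transcribed from both strands into long precursors, which are cut mainly at the tRNAs that lie between the messages and are then given short poly(A) tails. Its mRNAs encode the membrane-embedded core of the respiratory chain: the ND proteins belong to complex I, CYTB to complex III, the COX proteins to complex IV and the ATP proteins to ATP synthase (complex V). They are translated inside the organelle by mitochondrial ribosomes, while all other subunits of the same complexes come from nuclear genes, so both genomes contribute to each of these complexes.

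The cells were NIH3T3, a line derived from fibroblasts of mouse embryos, exposed to heat, to hydrogen peroxide (H2O2, an oxidant) or to potassium chloride (KCl). The RNA libraries form 8 groups of 2 replicates: a heat control, 44 °C for 2 h, 42 °C for 8 h, a control shared by H2O2 and KCl, H2O2 for 2 h and for 7 h, and KCl for 2 h and for 7 h. Ribosome profiling, which sequences mRNA fragments protected by ribosomes (footprints), covers the second control and both times of H2O2 and KCl, in 5 groups of 2. The labels used here give no doses of H2O2 or KCl and no handling of the controls, name no genotype or further treatment, and nothing in them shows that replicates came from separate cultures, so p-values measure only the spread between these samples.

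The 16 RNA libraries held 24441877 to 45244430 expected counts and the 10 footprint libraries 1460751 to 5168537, the lowest being replicate 1 of H2O2 for 2 h. Of 8 fibroblast markers, Col1a1 stood at 694 to 2835 TPM and Vim at 1783 to 4402 TPM (transcripts per length-scaled total, comparable between genes). Col1a2, Fn1 and Col3a1 lay at or above 67.05 TPM. Thy1 (7.6 to 64.2 TPM), Pdgfrb (10.67 to 121.81 TPM) and Pdgfra (14.55 to 42.25 TPM) were lower. At 7 h of H2O2, Thy1 and Pdgfrb were below Cd68 and Tubb3, markers of other cell types. Ptprc, Myod1 and Alb, markers of leukocytes, muscle and liver, stayed at or below 0.07 TPM, but of the 10 markers of other cell types Cd68 (5.32 to 44.7 TPM), Tubb3 (3.11 to 32.7 TPM) and Krt18 (6.46 to 17.2 TPM) were present in every library. The RNA is labelled as polyA-selected, and the sources used here do not give how the counting treated strand.

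On the RefSeq annotation of GRCm38.p6, the assembly that mm10 names, the genes follow each other around chromosome MT without introns. The complex I genes ND1 (2751 to 3707) and ND2 (3914 to 4951) come first, followed by COX1 (5328 to 6872) and COX2 (7013 to 7696). ATP6 (7927 to 8607) and COX3 (8607 to 9390) follow, and then ND4 (10167 to 11544), ND5 (11742 to 13565) and CYTB (14145 to 15288). Between them lie ATP8 (7766 to 7969), ND3 (9459 to 9806), ND4L (9877 to 10173) and ND6 (13552 to 14070). ATP8 and ATP6 share 43 bases and ND4L and ND4 share 7, and each of these pairs is known to be read from a single mRNA, so the division of counts between the rows of a pair is uncertain. ND6 shares 14 bases with ND5 and lies on the opposite strand, and without knowing how strand was counted its reads cannot be told apart from those of antisense RNA. Copies of mitochondrial sequence in the nuclear genome are a further reason why counts could be divided or lost.

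In unstressed cells these mRNAs were abundant but unequal. Together they took 2.95% and 2.48% of the RNA counts in the controls of the H2O2 and KCl experiment and 2.63% and 2.15% in the heat controls. Per length, ATP6 stood highest in the first of these controls, at 12019 and 14297 TPM, followed by COX2, COX1, COX3, ND1, CYTB, ND4 and ND2, with ND5 lowest at 1559 and 1571 TPM. The span from ATP6 to ND5 was 8.41 times. In that order the neighbours ATP6 and COX2, COX1 and COX3, and ND1 and CYTB had overlapping libraries, while the other neighbours did not. The heat controls gave the same top pair and the same last mRNA, ATP6 at 11048 and 13322 TPM and ND5 at 1529 and 1937 TPM, with a span of 7.03 times. The COX messages and ATP6 thus stood above the ND messages in every unstressed library, with ND1 the highest of the latter.

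**Figure D1:**
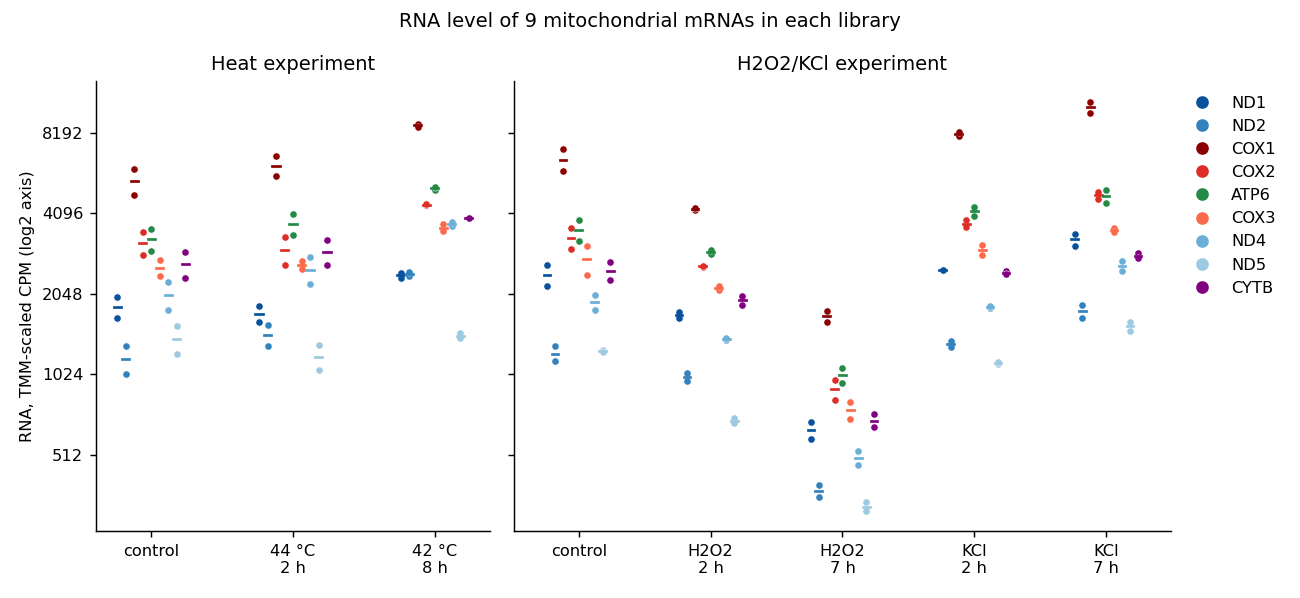
RNA level of each of the 9 mitochondrial mRNAs in each library, as TMM-scaled CPM on a log2 axis, with a point per library and a bar at the mean of the 2 replicates; a longer mRNA collects more counts, so heights are to be compared within a gene. All 9 sit lowest at 7 h of H2O2, and COX1 is between 1610 and 1761 there against 5924 and 7100.0 in its controls.

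H2O2 lowered all 9 mRNAs, and much further at 7 h than at 2 h. Their joint share of RNA counts went from 2.95% and 2.48% in the controls to 1.89% and 1.94% at 2 h and to 0.671% and 0.748% at 7 h. In bulk libraries, fewer cells holding these mRNAs and less of them per cell cannot be told apart. Shares and CPM are relative to the other RNA counted in each library, under every stress here. A change in the amount of that other RNA cannot be told apart either. At 2 h, 9 of 9 fell by edgeR's quasi-likelihood test with Benjamini-Hochberg adjustment over all genes (adjusted p from 5.02e-08 to 0.0194), where 53.9% of all 13256 genes tested were called and 26.5% were called lower. At 7 h, 9 of 9 fell again (edgeR, adjusted p from 3.75e-12 to 8.38e-10), with 70.5% of all genes called and 31.1% called lower. The median log2 fold change of the 9 was -0.37 at 2 h and -1.88 at 7 h, beside 0.00 and 0.08 over all genes tested.

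In complex I, the proton-pumping NADH dehydrogenase, ND1 stood at 2633 and 2186 CPM (counts scaled to a common library size) in the controls, 1658 and 1749 after 2 h of H2O2 and 584 and 680.4 after 7 h. ND2 stood at 1303 and 1144 in the controls, 966 and 1037 after 2 h and 355 and 394 after 7 h, in CPM. The groups did not overlap for either gene, and both replicates at 7 h were far below both at 2 h. Log2 fold changes against control were -0.50 ± 0.09 (SE, n = 2 per group) and -1.93 ± 0.09 for ND1 at 2 h and 7 h, and -0.29 ± 0.08 and -1.71 ± 0.08 for ND2. ND4 went from 2032 and 1787 CPM in the controls to 1374 and 1393 at 2 h, then to 469 and 526 at 7 h. ND5 went from 1265 and 1242 CPM to 674 and 699 and then 315 and 339. ND5 had the largest fall of the 9 at 2 h, 1.82-fold (-0.87 ± 0.06 on the log2 scale), against 1.38-fold for ND4, while at 7 h the 2 were alike at 3.83-fold and 3.84-fold.

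CYTB, the cytochrome b of complex III, stood at 2691 and 2306 CPM in the controls, 1864 and 2007 at 2 h, then 647 and 727 at 7 h, a fall of 1.29-fold and then 3.64-fold. In complex IV, COX1, the catalytic subunit that reduces oxygen, went from 7100.0 and 5924 CPM to 4203 and 4292 and 1609.5 and 1761. Its control libraries differed by more than its H2O2 libraries did at either time, yet no library of one group reached the range of the next. COX2, which accepts electrons from cytochrome c, went from 3620.3 and 3011 CPM to 2581 and 2608 and 822 and 975, and COX3, a core subunit without a redox centre, from 3102 and 2412 CPM to 2111 and 2191 and 698 and 806. At 7 h the falls were 3.86-fold for COX1, 3.69-fold for COX2 and 3.67-fold for COX3. ATP6, part of the proton channel of ATP synthase, went from 3882 and 3229.8 CPM to 2879.8 and 2991 and 949 and 1077, and had the smallest fall of the 9 at 2 h, 1.21-fold. Across the 9 the falls ran from 1.21-fold to 1.82-fold at 2 h and from 3.27-fold (ND2) to 3.86-fold (COX1) at 7 h. The direct comparison of 7 h with 2 h, in which 73.4% of all genes were called and 36.1% were called lower, found 9 of 9 lower at 7 h by 2.1-fold (ND5) to 2.9-fold (ATP6), with adjusted p from 4.68e-10 to 8.05e-09 (edgeR).

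Without replicate 1 of the control, 5 of the 9 mitochondrial mRNAs remained called lower at 2 h (COX3, COX2, ATP6 and ND2 did not), and without replicate 2 at 2 h ATP6 was not (edgeR adjusted p = 0.0501), while at 7 h all 9 were called whichever library was left out. The summed level of 8 fibroblast markers also moved with H2O2, from 7877 to 8087 TPM in the controls to 7306 to 7411 TPM at 2 h and 3647 to 3674 TPM at 7 h. The sum of 10 markers of other cell types was 37.1 to 39.5 TPM in the controls, 68.9 to 70.5 TPM at 2 h and 82.6 to 85.4 TPM at 7 h. Cd68, a marker of macrophages that sits in lysosomes, carried most of that difference, at 9.59 to 9.98 TPM in the controls and 42.6 to 44.7 TPM at 7 h, with Tubb3, a neuronal tubulin, at 14.4 to 14.6 and 31.4 to 32.7 TPM and Krt18, an epithelial keratin, at 12.2 to 14.04 and 6.46 to 7.13 TPM. The other 7 were at or below 1.04 TPM at 7 h, with Ptprc, Myod1 and Alb at or below 0.05 TPM. The part of these shifts in the fall of the mitochondrial mRNAs was not tested.

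KCl raised all 9 mRNAs at 7 h, by less than H2O2 lowered them, and 2 of the 9 at 2 h. The joint share of RNA counts was 2.69% and 2.67% at 2 h and 3.43% and 3.14% at 7 h, with the controls at 2.95% and 2.48%. The 2 that rose at 2 h compare with 54.2% of all genes called and 27.2% called higher. They were COX1, at 7967 and 8268 CPM against 7100.0 and 5924 (log2 fold change 0.32 ± 0.08, edgeR adjusted p = 0.00485), and ATP6, at 3990.4 and 4336 CPM against 3882 and 3229.8 (0.23 ± 0.09, edgeR adjusted p = 0.0473). The other 7 had log2 fold changes from -0.15 (ND5) to 0.18 (COX2). ATP6 lost its call with the nuclear rows alone used for scaling (0.18), with the replicate block, with only the groups compared in the fit, on TPM, and without KCl replicate 2. Without control replicate 2 neither COX1 (0.19) nor ATP6 (0.10) was called, and without control replicate 1 COX2 and COX3 were called too (0.31 each).

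At 7 h of KCl, 9 of 9 rose, where 68.8% of all genes were called and 37.2% were called higher. COX1 rose most, from 7100.0 and 5924 CPM to 10737 and 9708, a factor of 1.57 (log2 0.65 ± 0.08, edgeR adjusted p = 7.85e-06). COX2 reached 4936 and 4642 CPM and COX3 3619 and 3496, log2 fold changes of 0.53 and 0.37. In complex I, ND2 reached 1866 and 1662 CPM (0.53), ND1 3441 and 3101 (0.44), ND4 2711 and 2499.9 (0.45) and ND5 1610.0 and 1487 (0.31), log2 fold changes in parentheses. Both replicates of each of these stood above both controls, with ND1, for example, at 2633 and 2186 in the controls. ATP6, at 5024 and 4468 CPM, had a log2 fold change of 0.42, and CYTB, at 2908 and 2778, the smallest of the 9, 0.19 ± 0.08 (edgeR adjusted p = 0.0486). The call of CYTB was lost under 4 of the other settings, with log2 values down to 0.09 on TPM, and without 3 of the 4 libraries of the comparison taken singly (0.08 at the lowest), and COX3 was not called without control replicate 2 (0.20). Directly compared with 2 h, 68.8% of all genes were called and 35.1% were called higher, and 8 of the 9 were higher at 7 h, ND4 by most (0.51 ± 0.07), while ATP6 differed by 0.19 ± 0.09 (edgeR adjusted p = 0.0782). The fibroblast marker sum was 6936 to 7635 TPM at 7 h of KCl and that of other cell types 24.2 to 26.6 TPM; the part of these shifts was not tested. H2O2 and KCl share their control libraries, so their values against control are set side by side here and not correlated.

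**Figure D2:**
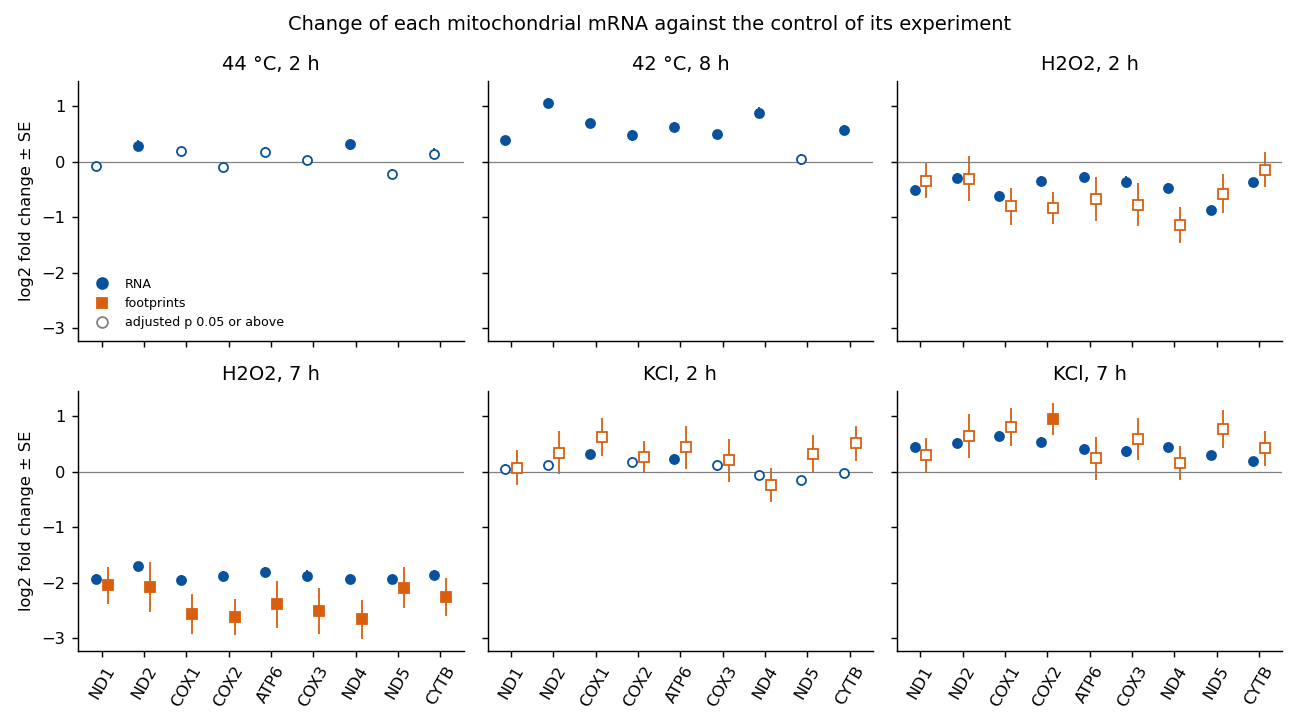
Log2 fold change of each of the 9 mRNAs against the control of its experiment, in gene order along the horizontal axis; circles are RNA and squares footprints, filled where the edgeR adjusted p is under 0.05, and lines show 1 SE where it exceeds the symbol. RNA values at 7 h of H2O2 lie between -1.95 and -1.71, whereas those at 7 h of KCl lie between 0.19 and 0.65.

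Heat separated by regime. After 8 h at 42 °C, 8 of 9 mRNAs rose and took 3.32% and 3.33% of the RNA counts, whereas after 2 h at 44 °C the share, 2.43% and 2.90%, was spread as widely as in the controls (2.63% and 2.15%). At 42 °C, 63.6% of all 12747 genes tested were called and 31.7% were called higher. ND2 rose most, from 1309 and 1029 CPM to 2395 and 2471, a factor of 2.08 (log2 1.06 ± 0.09, edgeR adjusted p = 2.61e-07). ND4 rose from 2261 and 1774 CPM to 3688 and 3791, a factor of 1.85 (log2 0.89 ± 0.10, edgeR adjusted p = 2.88e-06). ND1 rose less, from 1991 and 1659 CPM to 2456 and 2355 (log2 0.40). ND5 was at 1546 and 1219 CPM in the controls and 1396 and 1457 at 42 °C, with overlapping libraries and a log2 fold change of 0.04 ± 0.10 (edgeR adjusted p = 0.703). Within complex I the 4 messages thus ranged from 0.04 to 1.06 under the same heat treatment. Without control replicate 1 ND5 was called higher as well (0.23), and without control replicate 2 its sign turned (-0.12, not called).

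Outside complex I the response to 42 °C was more even. CYTB went from 2933 and 2347 CPM to 3939.8 and 3948 (log2 0.58), COX1 from 5986 and 4813 to 8875 and 8630.2 (0.70), COX2 from 3474 and 2856 to 4386 and 4427 (0.48), COX3 from 2747 and 2387 to 3740.3 and 3503 (0.50) and ATP6 from 3587 and 2972 to 5018 and 5141 (0.63). In each, both heated libraries lay above both controls, and the heated replicates were closer to each other than the controls were. On TPM the median of all genes moved by -0.17 and ND5 by -0.13, so that ND5 turned its sign, while the other 8 kept their calls. The fibroblast marker sum was 9890.2 to 10065 TPM in the heat controls, 8383 to 8719 TPM at 42 °C and 7155 to 7383 TPM at 44 °C. The sum of the markers of other cell types was 39.9 to 40.9 TPM, 29.5 to 30.4 TPM and 41.3 to 43.0 TPM in the same order, and the part of these shifts was not tested.

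At 44 °C for 2 h, 2 of 9 rose, ND2 and ND4, where 71% of all genes were called and 35.4% were called higher. ND2 stood at 1300.0 and 1568 CPM against 1309 and 1029 (log2 0.29 ± 0.09, edgeR adjusted p = 0.0104), and ND4 at 2234 and 2802 against 2261 and 1774 (0.32 ± 0.10, edgeR adjusted p = 0.00988). The other 7 ran from -0.22 (ND5) to 0.19 (COX1). Libraries of the heated and control groups overlapped for all 9, since replicates differed in common: the control replicate 1 exceeded replicate 2 for 9 of 9 mRNAs by a median of 0.31 on the log2 scale, and at 44 °C replicate 1 was below replicate 2 for 9 of 9, with a median of -0.27. The number called ran from 0 with DESeq2 to 8 with no filter on low counts, of which 5 were higher and 3 lower. With a library left out, the log2 values went as low as 0.13 for ND2 and 0.15 for ND4. Those of ND1, COX2 and ND5 went down to -0.21, -0.27 and -0.39. Directly compared, where 75.1% of all genes were called and 37.9% were called higher, 42 °C exceeded 44 °C for 9 of 9 mRNAs by 0.26 (ND5) to 0.76 (ND2) on the log2 scale (edgeR, adjusted p up to 0.0238); temperature and duration differ together here and cannot be told apart.

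Because all rows of this genome share each library's scale, the share of each mRNA among the 13 rows shows how the mix changed, whatever the overall level. These shares are given without a test. At both temperatures the mix differed within complex I. ND2 made up 4.91% and 4.74% of the 13 rows in the heat controls, 5.46% and 5.51% at 44 °C and 6.46% and 6.70% at 42 °C. ND4 made up 8.48% and 8.17% in the controls, 9.39% and 9.85% at 44 °C and 9.95% and 10.3% at 42 °C. ND5 lay on the other side, at 5.80% and 5.61% in the controls, 4.45% and 4.64% at 44 °C and 3.77% and 3.95% at 42 °C, and so did ND1, at 7.47% and 7.64%, 6.72% and 6.50% and 6.63% and 6.39%. For these 4 mRNAs no heated library reached the range of the controls at either temperature. Neighbours on the genome thus lay on opposite sides of the controls: ND4 above and ND5 below, and ND2 above and ND1 below.

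At 7 h of H2O2, when the levels fell most, the shares of the 9 among the 13 rows were 0.959 (COX1) to 1.13 (ND2) times those of the controls. ND2 made up 4.61% and 4.79% in the controls and 5.36% and 5.26% at 7 h, a shift about as large as its 1.14 times at 44 °C, and ATP6 13.7% and 13.5% and 14.4% and 14.4%. Both libraries at 7 h lay above both controls for ND2, ATP6 and CYTB and below both for ND1, COX1 and ND4, while COX2, COX3 and ND5 overlapped. Of the comparison rows, the shares of ATP8, ND3 and ND6 were 1.52, 0.794 and 0.812 times those of the controls. COX1 made up 25.1% and 24.8% of the 13 rows in the controls and 24.3% and 23.5% at 7 h, ND5 4.47% and 5.20% and 4.76% and 4.53%, and CYTB 9.52% and 9.66% and 9.78% and 9.72%. At 2 h of H2O2 ND5 was at 3.60% and 3.60%, below both controls, and COX1 at 22.4% and 22.1%. In KCl the share of COX1 was above both controls, at 28.0% and 28.2% after 2 h, then 28.5% and 28.1% after 7 h, and that of CYTB below both, at 8.72% and 8.27% and 7.72% and 8.06%. ND5 was below both of its controls at 2 h of KCl too, at 3.94% and 3.88%.

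**Figure D3:**
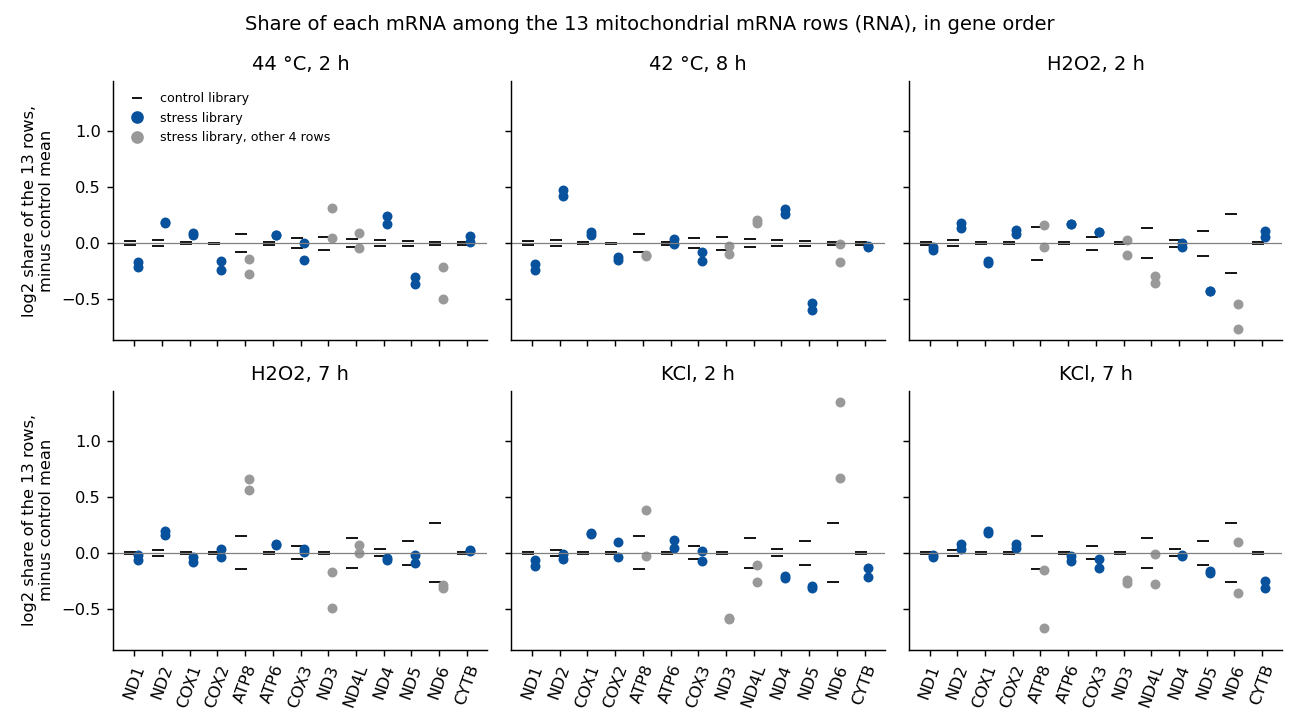
Share of each mRNA among the 13 mitochondrial mRNA rows of the RNA table, as log2 minus the mean of the control libraries, in gene order; points are stress libraries (grey for the 4 comparison rows) and short bars the control libraries. ND2 and ND4 lie above and ND5 below the controls in both heat panels, and at 7 h of H2O2 ND2 lies above its controls too, with shares of the 9 at 0.959 to 1.13 times the controls.

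The 4 comparison rows followed the same broad course at 7 h of H2O2, where ATP8 fell by 1.28, ND3 by 2.21, ND4L by 1.85 and ND6 by 2.19 on the log2 scale, each called. ATP8, which shares its mRNA with ATP6, had a log2 fold change of -1.28 ± 0.17 against -1.81 ± 0.09 for ATP6, a difference that was not tested, and its share of the 13 rows was 0.603% and 0.740% in the controls and 1.05% and 0.983% at 7 h. ND4L and ND4, likewise on a single mRNA, were close, at -1.85 and -1.94, and at 42 °C they were at 0.80 and 0.89. ND6, the one message of the opposite strand, is known to lack a poly(A) tail and was scarce in these polyA-selected libraries, at 23.2 and 28.3 CPM in the controls. It rose to 44.7 and 73.3 CPM at 2 h of KCl (log2 1.20 ± 0.20, edgeR adjusted p = 0.000139), where the 9 mRNAs had a median of 0.12, and stood at 39.9 and 26.6 CPM at 7 h (0.38, not called). ND3 went the other way at 2 h of KCl, from 297 and 253 CPM to 199.6 and 206 (log2 -0.44 ± 0.12, edgeR adjusted p = 0.00749).

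Nuclear genes for subunits of complexes I, III, IV and V, 72 rows in all, were read beside the 9 under each stress. Of the 72, 19 rose and 21 fell at 7 h of H2O2, where 70.5% of all genes were called and 31.1% called lower. Their median log2 fold change was -0.05 beside -1.88 for the 9 mitochondrial mRNAs. None of the 72 fell as far as the least changed of the 9. The lowest was Atp5s, annotated with ATP synthase, at -1.54, and the highest Ndufb6, an accessory subunit of complex I, at 1.22. Atp5s held only 1064 expected counts over all RNA libraries. Dmac2l, another symbol of the same gene, is a row too, with 915, so the value of Atp5s is uncertain. By complex, the nuclear medians at 7 h were -0.05 for complex I, -0.09 for complex III, 0.18 for complex IV and -0.10 for complex V, beside mitochondrial values of -1.93 (median of 4), -1.86, -1.88 (median of 3) and -1.81. By 2 h of H2O2, where 53.9% of all genes were called and 26.5% called lower, 37 of 72 nuclear rows fell and 0 rose. Their median was -0.17 beside -0.37 for the 9. There 15 of the 72 were below ATP6, the least changed of the 9.

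Among the 72 nuclear rows 48 fell and 4 rose at 7 h of KCl, where 68.8% of all genes were called and 37.2% called higher. The median of the 72 was -0.29, beside 0.44 for the 9 mitochondrial mRNAs, and 0 of the 72 reached 0.44. The lowest nuclear row was Ndufab1, the acyl carrier protein of complex I, at -1.05, and the highest Cox6a1, a subunit of complex IV, at 0.24. The medians were 0.00 and 0.12 at 2 h of KCl, with 5 of 72 up and 7 down. There 54.2% of all genes were called and 27.2% called higher. At 44 °C, 55 of 72 fell and 2 rose, where 71% of all genes were called and 35.4% called higher. Their median was -0.30, with Ndufa11 lowest at -0.92, beside a median of 0.15 for the 9. At 42 °C, 26 of 72 rose and 3 fell, where 63.6% of all genes were called and 31.7% called higher. Their median was 0.10, with Cox5a highest at 0.42, and 0 of the 72 reached the median of the 9, 0.58. The difference between the 2 genomes was not tested as such, since members of a complex are not replicates.

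**Figure D4:**
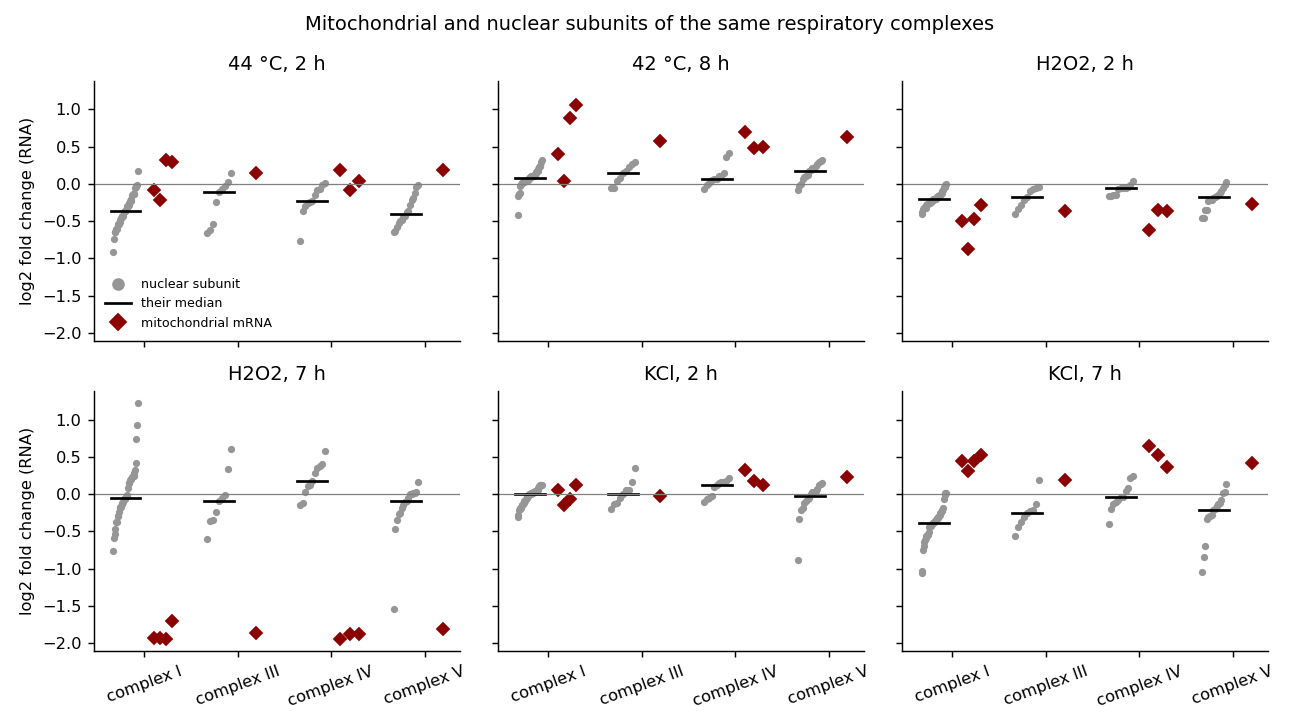
Log2 fold change in RNA of nuclear subunit genes (grey points, with a black line at their median) and of the 9 mitochondrial mRNAs (red diamonds) for each respiratory complex, against the control of each experiment. At 7 h of H2O2 every red diamond lies below every grey point, and at 7 h of KCl the nuclear medians lie at or below -0.04 with the mitochondrial values above 0.18.

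Genes that make and handle these mRNAs were read from lists chosen with earlier results of these data known. They are described by counts of rows. As background, 71% of all genes were called at 44 °C and 63.6% at 42 °C (35.4% and 31.7% higher). In H2O2 the shares were 53.9% at 2 h and 70.5% at 7 h (26.5% and 31.1% lower). In KCl they were 54.2% at 2 h and 68.8% at 7 h (27.2% and 37.2% higher). Several counts, here and for RNA processing, DNA maintenance and translation, lie near these shares. None was tested against them. Medians over all genes tested lay between -0.01 and 0.08 on the log2 scale. Of 16 rows for mitochondrial transcription and its control, 11 rose and 2 fell at 7 h of H2O2 (median 0.57), when the mRNAs themselves were at their lowest. Among them were Esrra, a nuclear receptor that drives genes of oxidative metabolism (log2 2.33 ± 0.07), Tfb2m, the initiation factor of the mitochondrial RNA polymerase (0.88 ± 0.09), and Mterf4 (0.79 ± 0.11). After 2 h of H2O2, 5 rose and 6 fell, with Polrmt, the mitochondrial RNA polymerase, at 26.8 CPM against 43.9 (log2 -0.71 ± 0.07, edgeR adjusted p = 1.99e-06) and Pprc1, a coactivator, at 0.63. After 7 h of KCl, 8 rose and 5 fell, with Polrmt at 73.8 CPM against 43.9 (0.75 ± 0.07, edgeR adjusted p = 3.54e-07) and Gabpa, a transcription factor of respiratory genes, at 1.26. At 42 °C, 6 rose and 7 fell, Polrmt at -0.31 and Tfb2m at 0.35, in the condition in which 8 of the 9 mRNAs rose. The counts were 10 up and 1 down at 44 °C, and 2 up and 7 down at 2 h of KCl.

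Of 21 genes for RNA processing, tailing, stability and decay, 13 rose and 3 fell at 42 °C (median 0.32), led by Trmt10c, a subunit of the mitochondrial RNase P that cuts at tRNAs, at 1.06 ± 0.07. Prorp, the nuclease subunit of the same enzyme, fell by 0.84 there. At 44 °C 10 rose and 6 fell, with Fastkd5, which takes part in maturing messages that no tRNA flanks, at 0.98. In H2O2, 5 rose and 10 fell at 2 h, and 11 rose and 4 fell at 7 h, with Trmt10c at 0.88 and 0.77. In KCl, 4 rose and 6 fell at 2 h, with Fastkd5 at -1.29, and 6 rose and 7 fell at 7 h, with Fastkd5 at 1.22 and Fastk, of the same family, at -1.46. Pde12, which removes poly(A) tails in mitochondria, fell at 2 h under both agents, by 0.52 in H2O2 and by 0.77 in KCl.

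Of 12 rows for maintenance of mitochondrial DNA, 9 rose and 2 fell at 7 h of H2O2 (median 0.66), with Top1mt, the mitochondrial topoisomerase I, at 1.67 and Slc25a33, a pyrimidine nucleotide carrier, at 1.52. Twnk and Peo1 are both rows of a single helicase gene, so their counts are uncertain. After 2 h of H2O2, 9 rose and 1 fell, and at 2 h of KCl 1 rose and 4 fell. At 44 °C 6 rose and 3 fell, and at 42 °C 3 rose and 2 fell. At 7 h of KCl, 6 rose and 5 fell, with Top1mt at -1.30 and Tk2, the mitochondrial thymidine kinase, at -1.48. Of 22 genes for mitochondrial translation and membrane insertion, 7 rose and 8 fell at 7 h of H2O2, among them Sco2, a copper chaperone of complex IV, at 1.48, and Coa3, an assembly factor of COX1, at -0.89. After 7 h of KCl, 5 rose and 13 fell, Coa3 by 1.74 on the log2 scale, while COX1 itself rose by 0.65 on that scale. At 2 h, 4 rose and 10 fell in H2O2 and 6 rose and 10 fell in KCl, with Mtif3, an initiation factor of mitochondrial translation, at -0.96 and -1.69. At 44 °C 10 rose and 6 fell, and at 42 °C 9 rose and 4 fell.

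Footprint libraries held far fewer fragments of these mRNAs, 927 to 11293 expected counts over the 9 in a library, or 0.0296% to 0.299% of its total. Mitochondrial ribosomes translate these mRNAs, and whether the fragments counted were covered by them was not tested. Per length, COX1 was highest in the controls, at 282 and 396 TPM, followed by ATP6, COX3, COX2 and CYTB, with neighbours overlapping. ND1 (92.0 and 108 TPM) lay below CYTB and above ND5, ND4 and ND2, which overlapped each other in turn. All 4 ND messages were thus below the other 5 in footprints, whereas in RNA of the same control ND1 stood above CYTB with overlapping libraries. ND5, last in RNA, was not last here.

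Footprints fell for 9 of 9 mRNAs at 7 h of H2O2, where 27.7% of all 10545 genes tested were called and 10.6% were called lower. In complex I, ND1 went from 97.6 and 87.7 CPM in the controls to 21.4 and 23.3, ND2 from 61.1 and 36.8 to 12.5 and 10.7, ND4 from 72.4 and 83.8 to 9.68 and 15.0 and ND5 from 129.6 and 92.1 to 19.9 and 32.0. CYTB went from 251 and 173 CPM to 42.1 and 46.4. COX1 went from 602 and 451 CPM to 76.6 and 101, COX2 from 192 and 131 to 22.2 and 30.2, COX3 from 243 and 202 to 32.5 and 45.5, and ATP6 from 223 and 166 to 30.7 and 43.2. In each case both libraries at 7 h lay far below both controls. The falls ran from 4.14-fold for ND1 (log2 -2.05 ± 0.34) to 6.32-fold for ND4 (-2.66 ± 0.35), with edgeR adjusted p from 5.67e-05 to 0.00354, and the median was -2.39 beside 0.01 over all genes. All 9 were called whichever library was left out. Footprints of the nuclear subunits did not share this: of 71 tested, 6 rose and 4 fell, with a median of -0.01.

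By edgeR, footprints were called for 0 of 9 mRNAs at 2 h of H2O2, where 1.91% of all genes were called; 3 of 9 had an unadjusted p under 0.05, and DESeq2 called 1. The log2 fold changes ran from -1.13 ± 0.32 (ND4, edgeR adjusted p = 0.0948) to -0.14 ± 0.32 (CYTB), with a median of -0.67. The replicates stood far apart, COX1 at 193 and 403 CPM, ATP6 at 56.7 and 179 and ND2 at 16.7 and 56.8, replicate 1 being lower for 9 of 9 by a median of 1.27 on the log2 scale. Replicate 1 was the shallowest footprint library, with 927 expected counts over the 9 against 7478 in replicate 2. Without replicate 2 of this group 2 of 9 were called lower. Directly compared with 2 h, where 29.8% of all genes were called and 11.1% were called lower, 9 of 9 were lower at 7 h by 2.87-fold (ND5) to 4.35-fold (CYTB) (edgeR adjusted p from 0.00051 to 0.00973), but 3 of 9 were called without replicate 2 at 2 h and 4 of 9 without replicate 1 at 7 h.

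At 7 h of KCl the footprints of COX2 were called higher, from 192 and 131 CPM to 244 and 384 (log2 0.96 ± 0.29, edgeR adjusted p = 0.0319). The other 8 were not called, where 20.4% of all genes were called and 10.5% were called higher. All 9 log2 fold changes were above 0, with a median of 0.59 beside -0.02 over all genes. COX1 was at 645 and 1192 CPM, above both controls, with an adjusted p of 0.111 (edgeR). Its interval of 1.96 SE either side ran from 0.14 to 1.47, which is too narrow for so few replicates. Log2 fold changes of the 8 not called ran from 0.16 (ND4) to 0.80 (COX1). The call of COX2 was lost without control replicate 2 (0.71), without replicate 2 at 7 h (0.60) and on TPM (0.91). By edgeR 0 of 9 were called at 2 h of KCl, with 0 at an unadjusted p under 0.05 and 0 by DESeq2, where 6.86% of all genes were called, with log2 fold changes from -0.24 (ND4) to 0.63 (COX1). Between 7 h and 2 h of KCl, where 20.6% of all genes were called, 0 of 9 differed by edgeR or DESeq2, and 1 had an unadjusted p under 0.05.

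**Figure D5:**
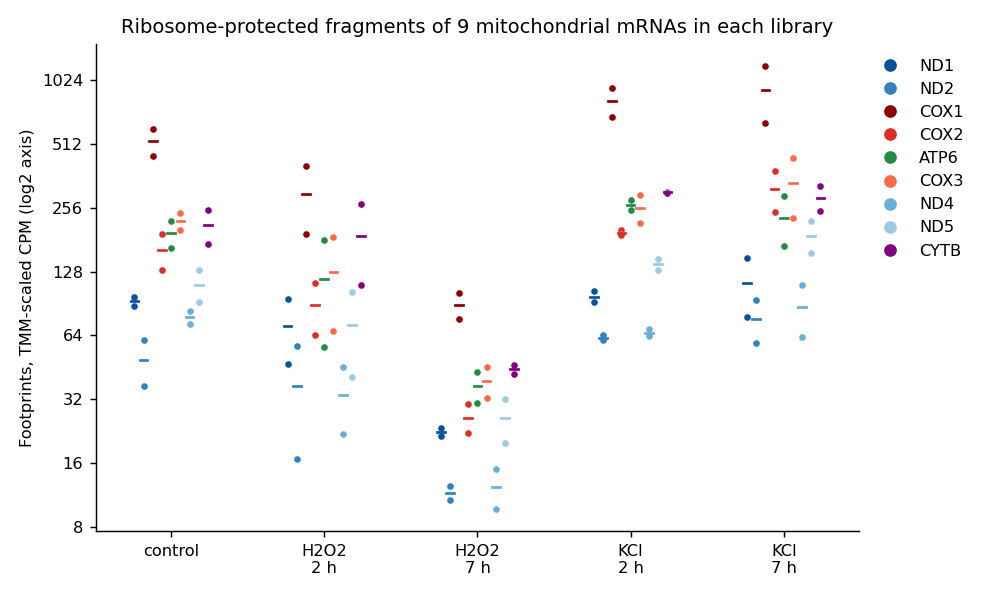
Footprints of each of the 9 mitochondrial mRNAs in each library, as TMM-scaled CPM on a log2 axis, with a point per library and a bar at the mean of the 2 replicates. All 9 are lowest at 7 h of H2O2, COX1 at 76.6 and 101 against 451 and 602 in the controls, and the replicates at 2 h of H2O2 lie far apart.

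Relative to their RNA, the 9 mRNAs had few footprints. In the controls the ratio of footprint CPM to RNA CPM ran from 0.0384 (ND1) to 0.0884 (ND5), beside a median of 0.711 over 10480 genes, and from 0.611% to 1.46% of those genes had a lower ratio. COX1 (0.0808), COX3 (0.0807), CYTB (0.0849) and ND5 stood above ND1, ND2 (0.0400), ND4 (0.0409) and COX2 (0.0487). ND6 stood apart at 2.32, above 95.2% of genes, with footprints at 85.1 and 34.3 CPM and RNA at 23.2 and 28.3 CPM. Its message is known to lack a poly(A) tail, and the RNA was polyA-selected. Its reads also cannot be told apart from antisense RNA, so this ratio is not a measure of its translation. The ratio was tested as an interaction in a model over the 20 libraries of both kinds, and 0 of 9 were called in each of the 4 comparisons by edgeR, 0 had an unadjusted p under 0.05, and limma voom called 0. The background shares called were 11.4% and 9.27% for H2O2 at 2 h and 7 h and 12.8% and 5.57% for KCl. The medians of the 9 were -0.21, -0.58, 0.20 and 0.19 in the same order.

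The intervals of these ratio changes were wide. At 7 h of H2O2 the log2 change was -0.74 for COX2 (1.96 SE either side, -1.43 to -0.05), -0.72 for ND4 (-1.45 to 0.01), -0.62 for COX1 (-1.41 to 0.18) and -0.12 for ND1 (-0.85 to 0.61). The intervals of COX2, ND4 and COX1 include -1. That of COX2 leaves out 0, yet its unadjusted p by edgeR was not under 0.05. Such intervals take no account of how few replicates the SE rests on and are too narrow. Without footprint replicate 2, 4 of 9 were called lower at 2 h of H2O2. Among the comparison rows, ATP8 had more footprints at 2 h of H2O2, 39.3 and 62.7 CPM against 22.3 and 12.6, with RNA at 123 and 146 against 171 and 177, and its ratio rose by 1.95 ± 0.36 on the log2 scale (edgeR adjusted p = 0.00244). The ratio of ND4L rose by 1.27 ± 0.26 (edgeR adjusted p = 0.00516). ATP6 and ND4, which share a message with these rows, were at -0.40 and -0.67 and were not called. The division of counts between the rows of each pair is uncertain, and so are the ratios of ATP8 and ND4L. Footprint replicate 1 at 2 h of H2O2 was also the shallowest footprint library. Of 71 nuclear subunits, 14 had a higher ratio at 2 h of H2O2 and 0 a lower, with a median of 0.41, while at 7 h 0 of 71 were called.

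The 9 mRNAs followed each other closely over the 10 RNA libraries of the H2O2 and KCl experiment, with a Pearson r of each with the mean log2 CPM of the other 8 from 0.977 (ND5) to 0.9996 (ND1), beside 0.982 for ND4L, 0.971 for ND3, 0.916 for ATP8 and 0.870 for ND6, each with the mean of the 9. Over the 6 heat libraries r ran from 0.953 (ND1) to 0.991 (CYTB), apart from ND5 at 0.583, beside 0.999 for ND4L, 0.946 for ATP8, 0.877 for ND3 and 0.861 for ND6. Of 9393 nuclear genes, those with the pattern most like the mean of the 9 over the 10 libraries were Kpna2 (r = 0.997), Kif11, Foxm1, Sec23a and Racgap1 (r = 0.993). Over the 6 heat libraries, out of 9612 genes, they were Mrgbp (r = 0.989), Tsen15, Tbc1d12, Morc3 and Ftx (r = 0.977). These are descriptions: points share treatments and library scale, and the range of the 9 was 2.46 on the log2 scale over the 10 libraries and 0.74 over the 6.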

How the data were processed

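RNA-seq and ribosome profiling of NIH3T3 cells were analysed in 26 libraries. The authors deposited expected counts and TPM per gene for both assays; STAR, RSEM and Bowtie and the build mm10 are named, per the submitters' processing notes, without roles or versions. The deposited expected counts were used as whole numbers, and TPM served only for levels between genes and for an alternative fit. Left out were 12 columns whose names fit no sample in the labels.

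Counts were tested over all genes with edgeR 4.0.16 (R 4.3.3): TMM scaling, filterByExpr, the quasi-likelihood F test and Benjamini-Hochberg adjustment, with a threshold of 0.05. The heat and the H2O2 and KCl experiments were fitted separately, each with all its groups, and the footprint to RNA ratio as an interaction over 20 libraries. SE is the absolute log2 fold change over the square root of F. The procedure was tested on counts simulated for 2 h of H2O2 against control, and in RNA also for 44 °C. A log2 change of 1 was recovered for 100% of changed genes in RNA, 25% in footprints and 51% in the ratio. A log2 change of 2 was recovered for 96% in footprints and 95% in the ratio. Of the calls, 4.58% to 8.33% were false. Footprint and ratio changes of log2 1 could thus often go uncalled. Alternatives were DESeq2 1.42.0, limma 3.58.1 on log2(TPM + 1) for rows of at least 1 TPM or with voom, RLE factors, scaling on nuclear rows, no filter, a replicate block, only the groups compared, and leaving out each library. No pair of replicates held identical values.

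Named were the 9 mRNAs, the other 4 rows of this genome, at most 3 called genes per list and comparison with the largest change, subunits at the ends of their range, and the 5 nuclear genes most like the mean in each experiment. The members, lists and rules were chosen with earlier results of these data known. RefSeq positions are those of GRCm38.p6. Sequences of these genes were not used here.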

Additional observations from a re-analysis of the deposited data

Results flagged for a closer look

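The effect of H2O2 on RNA differed between 2 h and 7 h for 9 of 9 mitochondrial mRNAs in the direct test of the time points, where 73.4% of all genes differed. The log2 values of 7 h minus 2 h were -1.43 for ND1, -1.42 for ND2, -1.48 for ND4 and -1.07 for ND5 in complex I. They were -1.49 for CYTB, -1.33 for COX1, -1.53 for COX2, -1.52 for COX3 and -1.53 for ATP6. ND5, which had fallen most by 2 h, fell least between the times.

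The effect of KCl on RNA also differed between its times, upward, for 8 of 9, where 68.8% of all genes differed and 35.1% were higher. The log2 values of 7 h minus 2 h were 0.38 for ND1, 0.41 for ND2, 0.51 for ND4 and 0.45 for ND5, 0.21 for CYTB, and 0.33, 0.35 and 0.25 for COX1, COX2 and COX3.

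Footprints differed between 2 h and 7 h of H2O2 for 9 of 9, where 29.8% of all genes differed. The log2 values were -1.71 for ND1, -1.78 for ND2, -1.52 for ND4 and -1.52 for ND5, and -2.12 for CYTB. They were -1.76 for COX1, -1.79 for COX2, -1.74 for COX3 and -1.72 for ATP6. The footprint replicates at 2 h stood far apart, and the count of mRNAs called depended on them, as given with the results.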

How the results depend on the processing

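Of the comparisons of the 9 mitochondrial mRNAs, RNA and footprints at 7 h of H2O2 were called for 9 of 9 under every alternative run. At 44 °C the 2 mRNAs called became 4 with RLE factors, 8 with no filter, 0 with DESeq2, 4 on TPM, and 3 to 6 with a library left out. At 2 h of KCl the 2 became 3 with DESeq2, 3 with no filter, 1 with the replicate block and 1 with only the groups compared, and 0 to 4 with a library left out. Footprints at 2 h of H2O2 went from 0 to 1 with no filter, 1 with the replicate block, 1 with DESeq2, and 0 to 2 with a library left out. Footprints at 7 h of KCl went from 1 to 2 with only the groups compared, 0 on TPM, and 0 to 1 with a library left out. With a library left out, RNA at 2 h of H2O2 was called for 5 to 9, footprints at 7 h against 2 h of H2O2 for 3 to 9, and the ratio at 2 h of H2O2 for 0 to 4. With the replicate block RNA at 7 h of KCl was called for 8 of 9, CYTB losing its call, as ATP6 did at 2 h. Apart from these and the footprints at 2 h of H2O2, the block changed no count. The causes were not tested.

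On TPM, ND5 at 42 °C turned to -0.13 and ND1 at 2 h of KCl to -0.0425 on the log2 scale. Leaving out a library turned the sign of small RNA values: at 44 °C COX2 ran from -0.27 to 0.0749, COX3 from -0.0642 to 0.14, CYTB from -0.0133 to 0.32 and ND1 from -0.21 to 0.0525. At 2 h of KCl COX3 ran from -0.0557 to 0.31, CYTB from -0.13 to 0.0885, ND1 from -0.0725 to 0.20 and ND4 from -0.16 to 0.0296, and at 42 °C ND5 from -0.12 to 0.23. Of 62 footprint and ratio values not called, 28 changed sign with a library left out. The labels do not say that a replicate number marks a shared batch, and deviations of same-numbered libraries correlated by -0.10 to 0.11 in RNA and -0.38 to 0.41 in footprints.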
